A study of Rattus norvegicus with 6 samples.

Results

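Granulocyte genes were followed in the ovaries of lean and overfed pregnant rats. The 10 genes were 5 of neutrophils (S100a8, S100a9, Mpo, Cxcr2 and Csf3r) and 5 of mast cells (Cpa3, Cma1, Tpsab1, Fcer1a and Kit), and a member was every probe set that the array's annotation assigned to 1 of them and to no other gene. This gave 9 probe sets, 1 for each of 9 genes, of 31042 tested. Mpo, the myeloperoxidase of neutrophil granules, had no probe set under this rule and was not analysed here, which left 4 neutrophil genes and 5 mast cell genes. Ovary RNA was hybridized to 6 Affymetrix arrays, each with the RNA of 1 pool, 3 lean and 3 overfed. Female rats (Rattus norvegicus) received liquid diets by total enteral nutrition for 28 days, at 155 kcal in the lean and 220 kcal in the overfed group, both per kg of metabolic body weight. All were mated with lean males, with ovaries collected at 4.5 days post coitum and frozen. The sources used here do not give the strain, the age of the animals or how many animals made up a pool, so the p-values measure the spread between pools.

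Neutrophils are short-lived white cells of the blood that enter tissues during inflammation. They carry large amounts of the calcium-binding proteins S100A8 and S100A9, which form the heterodimer calprotectin, and they are drawn and kept alive through chemokine and growth factor receptors such as CXCR2 and the G-CSF receptor. Mast cells are long-lived tissue cells that depend on the KIT receptor, bind IgE through the high-affinity Fc receptor and store proteases such as carboxypeptidase A3, chymase and tryptase in their granules. In the ovary, neutrophils gather around ovulation, mast cells lie mainly in the medulla and hilum, and KIT is also made by oocytes and theca cells. In whole ovary RNA, fewer cells of a type and less RNA per cell cannot be told apart.

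The promoters of 4 members are shown, those in which the GATA motif searched here was found. They are that of S100a9, of the S100 genes in which the large difference in the data lay, and those of the mast cell genes Cpa3, Cma1 and Fcer1a. GATA factors act on many mast cell promoters. Each sequence holds the 250 bases before the gene's start on the gene's own strand, from RefSeq's GRCr8 assembly of the rat. Capitals mark AGATAA or its reverse complement TTATCT, the GATA motif searched here. The S100a9 promoter lies at chr2:178490623-178490872 on the minus strand, that of Cpa3 at chr2:104673238-104673487 (minus), that of Cma1 at chr15:33390134-33390383 (minus) and that of Fcer1a at chr13:88224680-88224929 (minus).
S100a9: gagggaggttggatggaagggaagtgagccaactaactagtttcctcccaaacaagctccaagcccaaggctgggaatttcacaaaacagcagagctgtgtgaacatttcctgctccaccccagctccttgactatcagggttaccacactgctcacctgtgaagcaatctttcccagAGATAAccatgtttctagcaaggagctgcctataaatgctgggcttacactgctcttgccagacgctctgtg
Cpa3: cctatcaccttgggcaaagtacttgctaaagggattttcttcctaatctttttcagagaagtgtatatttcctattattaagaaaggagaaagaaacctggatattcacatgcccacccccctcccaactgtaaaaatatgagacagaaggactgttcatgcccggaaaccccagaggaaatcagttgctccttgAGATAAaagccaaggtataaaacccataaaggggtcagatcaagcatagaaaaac
Cma1: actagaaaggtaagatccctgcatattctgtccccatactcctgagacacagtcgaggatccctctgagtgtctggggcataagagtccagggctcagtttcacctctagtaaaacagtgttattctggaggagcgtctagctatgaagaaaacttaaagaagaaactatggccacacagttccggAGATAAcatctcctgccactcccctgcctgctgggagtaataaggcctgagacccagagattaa
Fcer1a: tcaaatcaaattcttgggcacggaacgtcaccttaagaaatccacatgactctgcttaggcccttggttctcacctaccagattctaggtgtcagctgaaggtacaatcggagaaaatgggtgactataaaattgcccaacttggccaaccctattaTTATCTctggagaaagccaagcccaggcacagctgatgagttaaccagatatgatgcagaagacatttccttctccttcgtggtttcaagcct

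A promoter was found in the table for 9 of the 10 genes, the missing entry being S100a8. The motif AGATAA, searched on both strands, was in 4 of the 9, against 10.3% of 33469 rat promoters of the same length. It ran from 55 to 50 bases before the start in Cpa3, from 64 to 59 in Cma1, from 72 to 67 in S100a9 and, as TTATCT, from 93 to 88 in Fcer1a. The mast cell genes Tpsab1 and Kit and the neutrophil genes Mpo, Cxcr2 and Csf3r had no match of this motif. The letters GAGGAA, the core bound by ETS factors such as PU.1, were in 5 of the 9 (S100a9, Mpo, Csf3r, Cpa3 and Tpsab1), against 23.3% of all promoters. TTNNGNAA, a loose form of the C/EBP motif, was in 6 of the 9 (S100a9, Mpo, Csf3r, Cpa3, Tpsab1 and Fcer1a), against 37.2%. The matches of the 3 motifs did not overlap each other in the 4 promoters printed. These are matches of letters in a window and show no binding.

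The deposited values were logarithms, read here as log2, of which each probe set's median over the arrays had been subtracted, so a value gives a pool's position and not a level. Whether ovary or granulocyte markers were present at all could therefore not be checked, and no gene's level is set against another's. The SD over probe sets was 0.14 to 0.29 between arrays. Lean pool 3 had a mean of 0.53 over 9 hybridization control probe sets, against -0.23 to 0.035 in the other pools, and overfed pool 1 had the largest SD. The members' values without both of these pools are given where they differ by over 1.5 times.

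Setting overfed against lean ovaries asks how the ovary's genes, and in the series' title its inflammation, differ with overfeeding. S100a8 and S100a9 had differences of +1.08 and +1.12 in log2, while the other 7 members lay between -0.03 and +0.25. In 8 of the 9 members the overfed mean was higher, and the exception was Kit. None of the 9 passed an adjusted p of 0.05 in limma (smallest adjusted p = 0.715), where 0.0% of all probe sets passed. At an unadjusted p under 0.05 there was 1 of 9, S100a9, against 6.67% of all probe sets. Higher overfed means were found in 54.6% of all probe sets. The groups did not overlap in 2 of 9 members, Cxcr2 and Fcer1a, against 12.7% of all probe sets. Both were higher in overfed ovaries, against 7.35% of all probe sets, and 0 of 9 were lower without overlap, against 5.33%.

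**Figure D1:**
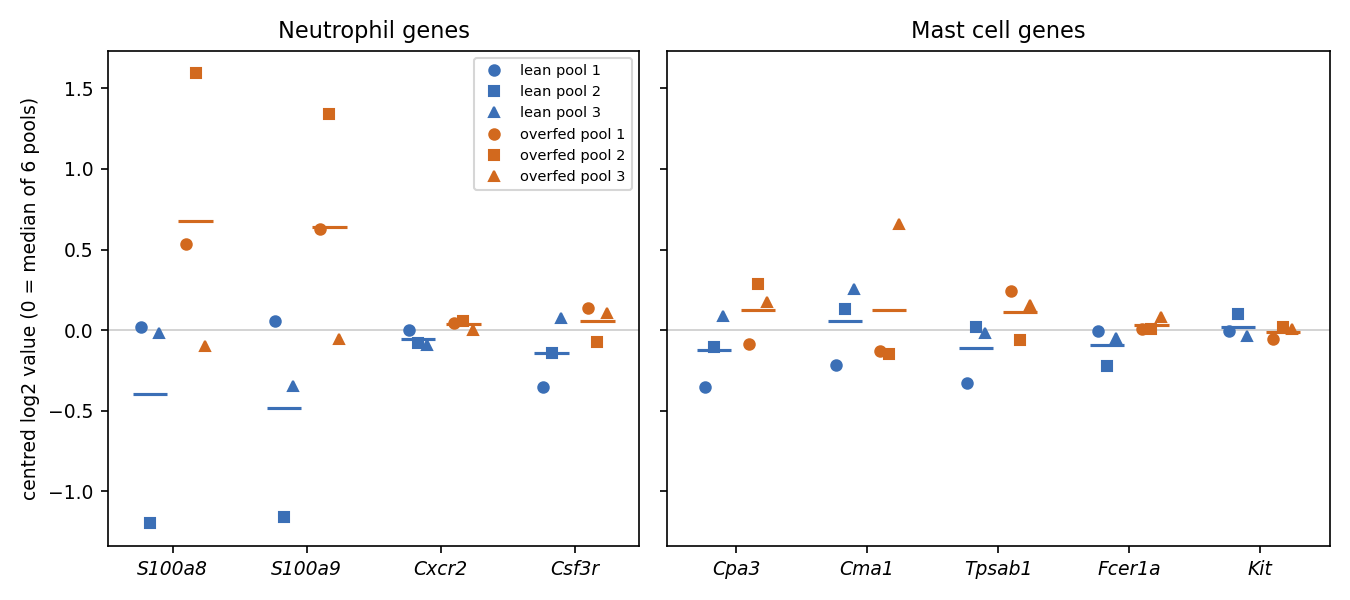
Values of the 9 members in the 6 pools, as log2 relative to the gene's median over the pools (vertical axis, the same in both panels). Points are pools, with the pool number by shape and the group by colour, and short lines are group means (n = 3); S100a8 and S100a9 run from -1.20 to 1.59 and from -1.16 to 1.34, while the other genes stay between -0.35 and 0.66.

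S100a8, whose protein is the smaller subunit of calprotectin, read 0.02, -1.20 and -0.02 for lean pools 1 to 3, against 0.53, 1.59 and -0.10 for overfed pools 1 to 3. Overfed pool 2 was the highest and lean pool 2 the lowest, and the groups overlapped, since overfed pool 3 lay below lean pools 1 and 3. The lean mean was -0.40 ± 0.69 (SD, n = 3) and the overfed mean 0.68 ± 0.85. The difference of 1.08 (SE 0.48, 95% interval -0.06 to 2.22), or 2.11-fold, had an unadjusted p of 0.0608 and an adjusted p of 0.767 in limma. The two-sided exact permutation test over the pools had p = 0.3, and the smallest p that 3 pools a group allow is 0.1.

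S100a9, the other subunit, had 0.06, -1.16 and -0.35 for lean pools 1 to 3, against 0.63, 1.34 and -0.06 for overfed pools 1 to 3. The same pools were at the ends, and overfed pool 3 again lay within the lean range. The difference was 1.12 (SE 0.41, 95% interval 0.14 to 2.09), or 2.17-fold, with an unadjusted p of 0.0299 and an adjusted p of 0.715 in limma and an exact permutation test p of 0.2. Of 31042 probe sets, 5 had a larger increase than S100a9 and 6 a larger one than S100a8, both in the same fit. These ranks rest on means with a wide spread. The members were also chosen with earlier results of these data known, so the ranks describe them and are no test. The range over the 6 pools, 2.79 for S100a8 and 2.50 for S100a9, was exceeded by 0.283% and 0.457% of all probe sets.

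Much of both differences came from the number 2 pools. Leaving out overfed pool 2 gave 0.62 for S100a8 and 0.77 for S100a9, and leaving out lean pool 2 gave 0.68 and 0.78. Leaving out overfed pool 3, the overfed pool within the lean range, gave 1.46 and 1.47. With neither lean pool 3 nor overfed pool 1, S100a8 was at 1.34 and S100a9 at 1.19.

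Csf3r, the receptor for granulocyte colony-stimulating factor on neutrophils and their precursors, had -0.35, -0.14 and 0.08 for the lean pools, against 0.13, -0.08 and 0.11 for the overfed pools. Lean pool 1 was the lowest, and overfed pool 2 lay inside the lean range. The difference of 0.20 (SE 0.13, 95% interval -0.10 to 0.50) had a limma adjusted p of 0.841. This difference was 0.09 without lean pool 1 and 0.31 without lean pool 3. Cxcr2, the receptor for chemokines that draw neutrophils, had -0.00061, -0.082 and -0.092 for the lean pools, against 0.046, 0.059 and 0.00061 for the overfed pools. All overfed values lay above all lean values, but over a range of only 0.15, which 95.1% of all probe sets exceeded. Its difference was 0.09 (SE 0.076, 95% interval -0.09 to 0.27; limma adjusted p = 0.874), and the exact permutation test p was 0.1. The upper ends of both intervals lay under the differences of the S100 genes. The intervals of S100a8 (-0.06 to 2.22) and S100a9 (0.14 to 2.09) overlapped both, however, and the difference between genes was not tested.

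**Figure D2:**
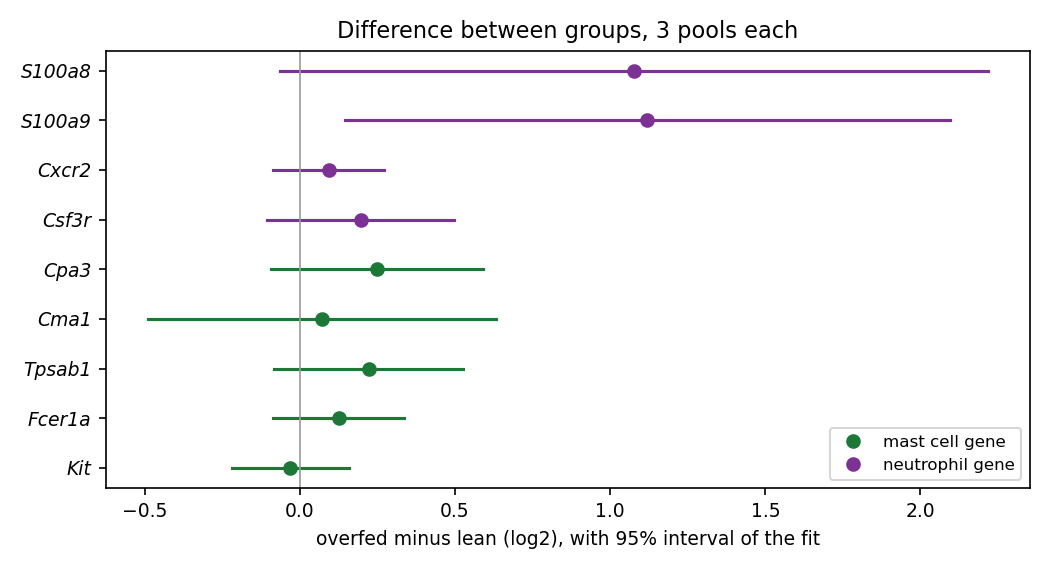
Overfed minus lean difference in log2 (horizontal axis) for each of the 9 members (rows), with the 95% interval of the limma fit as a line, 3 pools per group, neutrophil genes in purple and mast cell genes in green. The interval of S100a9, from 0.14 to 2.09, is the only 1 of the 9 that does not reach 0.

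Among the mast cell genes the granule protease genes Cpa3 and Tpsab1 had the largest differences. Cpa3, for carboxypeptidase A3, had -0.35, -0.11 and 0.08 for lean pools 1 to 3, against -0.08, 0.29 and 0.18 for overfed pools 1 to 3. Lean pool 1 was the lowest, overfed pools 2 and 3 lay above every lean pool, and overfed pool 1 overlapped them. The difference was 0.25 (SE 0.14, 95% interval -0.09 to 0.59), with an unadjusted p of 0.128 and an adjusted p of 0.829 in limma. It was 0.14 without lean pool 1 and 0.46 with neither lean pool 3 nor overfed pool 1. Its size thus depended on which pools were kept.

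Tpsab1, a tryptase gene, had -0.33, 0.02 and -0.02 for the lean pools, against 0.24, -0.06 and 0.16 for the overfed pools. Lean pool 1 was again the lowest, and overfed pool 2 lay below lean pools 2 and 3. The difference of 0.22 (SE 0.13, 95% interval -0.08 to 0.53; limma adjusted p = 0.829) was 0.11 without lean pool 1. Tryptase genes are close copies of each other, so a probe set may also bind RNA of a related gene. Named after its values were seen, Tpsb2, the other listed tryptase gene with a probe set, was at -0.03 (SE 0.12).

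Cma1, the chymase gene, had the widest range of the mast cell genes, 0.88, but not along the groups. Its values were -0.22, 0.13 and 0.25 for the lean pools, against -0.13, -0.15 and 0.66 for the overfed pools. Overfed pool 3 stood above all other pools, while overfed pools 1 and 2 were below lean pools 2 and 3. The difference of 0.07 (SE 0.24, 95% interval -0.49 to 0.63; limma adjusted p = 0.975) turned to -0.19 without overfed pool 3 and to -0.06 without lean pool 1. It was 0.17 without lean pool 3, 0.11 without lean pool 2, 0.20 without overfed pool 1, 0.21 without overfed pool 2, 0.30 with neither lean pool 3 nor overfed pool 1 and 0.20 with quantile normalization, so neither its sign nor its size was settled. Lean pool 1 was the lowest of the 6 pools in Cpa3, Tpsab1 and Cma1, 3 of the 5 mast cell genes, and in Csf3r. It was the lowest in 17.1% of all probe sets.

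Fcer1a, the IgE-binding chain of the high-affinity receptor, had -0.0050, -0.22 and -0.051 for the lean pools, against 0.0050, 0.0079 and 0.084 for the overfed pools. The groups did not overlap, but the highest lean pool and the lowest overfed pool lay close together on either side of 0. Its difference was 0.12 (SE 0.089, 95% interval -0.09 to 0.34; limma adjusted p = 0.849; exact permutation test p = 0.1), and 0.06 without lean pool 2. Kit, the receptor for stem cell factor, had -0.0049, 0.098 and -0.035 for the lean pools, against -0.055, 0.018 and 0.0049 for the overfed pools. The groups overlapped throughout, and the range of 0.15 was exceeded by 94.8% of all probe sets. The difference was -0.03 (SE 0.080, 95% interval -0.22 to 0.16; limma adjusted p = 0.968), and it turned to 0.0092 without lean pool 2.

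Set side by side, the 4 neutrophil genes had a median difference of 0.64 and the 5 mast cell genes of 0.12, against 0.0079 over 14217 genes. With neither lean pool 3 nor overfed pool 1 these medians were 0.73 and 0.20, and with quantile normalization the mast cell median was also 0.20. With 1 pool left out, the neutrophil median ran from 0.44, without lean pool 2 or overfed pool 2, to 0.82 without overfed pool 3. The mast cell median then ran from 0.099, without overfed pool 3, to 0.17 without lean pool 3. The neutrophil median was carried by the S100 genes, since Cxcr2 and Csf3r, at 0.09 and 0.20, lay within the range of the mast cell genes. Averaged over its genes, the neutrophil set was at -0.07, -0.65 and -0.10 for lean pools 1 to 3, against 0.33, 0.73 and -0.01 for overfed pools 1 to 3. The mast cell set was at -0.18, -0.02 and 0.05 for the lean pools, against -0.0043, 0.02 and 0.22 for the overfed pools. The sets were at their ends in different pools: lean pool 2 and overfed pool 2 for neutrophil genes, lean pool 1 and overfed pool 3 for mast cell genes. The difference between the sets was not tested.

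S100a8 and S100a9 lie beside each other in RefSeq's GRCr8 annotation, with 0 other genes between them, and their values followed each other closely. The mean absolute difference of their values over the 6 pools was 0.13, and no other probe set of the array was nearer to either gene. The largest gaps were 0.33 in lean pool 3 and 0.25 in overfed pool 2, where S100a8 was the higher. By the same measure, among genes with a standard symbol, those next nearest to S100a8 were Coch (0.36), Gnmt (0.39), Ccdc77 (0.39) and Mis18a (0.40), and next to S100a9 came Coch (0.28), Mis18a (0.31), Grb10 (0.33) and Trps1 (0.35). This distance depends on the size of a gene's range as well as on its order of pools, and a gene at 0 in every pool would be at 0.58 from S100a8. Coch, which encodes the matrix protein cochlin, had -0.53, -1.09 and -0.33 for the lean pools, against 0.33, 1.04 and 0.33 for the overfed pools, with no overlap and a difference of 1.22 (SE 0.26, unadjusted p = 0.0021 in limma). The smallest limma adjusted p over all probe sets was 0.623. Coch was picked for its nearness to the S100 genes in these same pools, so its group difference follows in part from that choice.

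Both S100 genes had their lowest value in lean pool 2 and their highest in overfed pool 2, an arrangement found in 1.78% of all probe sets. Cxcr2 was highest in overfed pool 2 too, at 0.059, but lowest in lean pool 3, at -0.092, over its small range. Csf3r was lowest in lean pool 1, at -0.35, and highest in overfed pool 1, at 0.13.

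**Figure D3:**
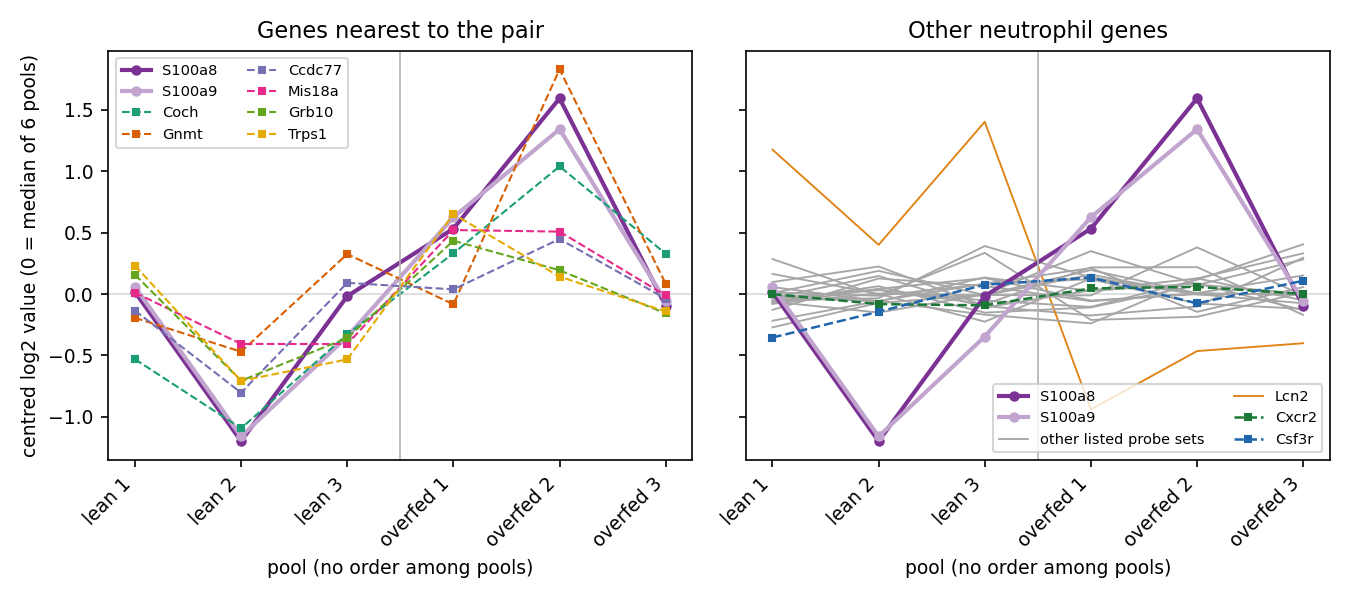
Values in the 6 pools (horizontal axis, pools in no order within a group) as log2 relative to the gene's median (vertical axis). S100a8 and S100a9 are drawn in both panels and run from -1.20 to 1.59, with the genes nearest to them on the left. On the right are Cxcr2, Csf3r and the 19 probe sets of other neutrophil genes. The 19 have a median range of 0.43, against 0.38 over all probe sets, and apart from Lcn2 a range of at most 0.57.

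The list of other neutrophil genes held 30 genes of granules, receptors, adhesion and the oxidative burst, of which 16 had a probe set. Of the 16, the overfed mean was above the lean mean in 9 and below it in 7, and the median was 0.04. Without overfed pool 2 the counts were 7 and 9 and the median -0.01. Of 19 probe sets, 0 were higher and 2 lower at an unadjusted p under 0.05 in limma: Lcn2 and Padi4. Over all probe sets, 3.31% were higher and 3.36% lower by the same rule. None of the 19 passed the adjusted threshold in limma. Lcn2, for the siderophore-binding lipocalin of neutrophil granules and of epithelia, was at 1.18, 0.40 and 1.40 for the lean pools, against -0.94, -0.46 and -0.40 for the overfed pools, with no overlap. Its difference was opposite in sign to those of the S100 genes, at -1.60 (SE 0.27, limma adjusted p = 0.623). Padi4, a histone-citrullinating enzyme of neutrophils, was at -0.33 (SE 0.12, unadjusted p = 0.0287 in limma). Named after their values were seen, the granule genes Mmp8 (+0.08) and Camp (-0.07) and the chemokine receptor Cxcr1 (+0.16) had unadjusted limma p-values of 0.366, 0.66 and 0.279. Without overlap, 2 of the 19 probe sets were higher, against 7.35% of all probe sets, and 1, Lcn2, was lower, against 5.33%. The 2 higher, also named after their values were seen, were Itgb2 (+0.23, SE 0.10) and Alox5ap (+0.22, SE 0.11). Apart from Lcn2, the widest range over the pools in this list was 0.57, against 2.79 in S100a8.

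Of 15 genes that draw, hold or expand neutrophils, 14 had a probe set, 8 higher and 6 lower, with a median of 0.11, and 0 of their 20 probe sets had an unadjusted p under 0.05 in limma. The median was 0.06 without overfed pool 1, also when lean pool 3 was left out as well. By the same p, 2 probe sets were higher and 1 lower without overfed pool 2 or with neither lean pool 3 nor overfed pool 1, 1 was higher and 1 lower without lean pool 3 or with the pool number as a block, and 1 was higher without lean pool 2. Named after their values were seen, the chemokine gene Cxcl1 had 0.75, -0.95 and -0.67 for the lean pools, against -0.71, 0.67 and 1.03 for the overfed pools, a difference of 0.62 (SE 0.57, unadjusted p = 0.311). It overlapped between the groups and, like the S100 genes, was lowest in lean pool 2, but overfed pool 1 was low and overfed pool 3 the highest. Also named after their values were seen, the endothelial selectin gene Sele was at 0.43 (SE 0.23), and the adhesion gene Icam1 at 0.27 (SE 0.15). The probe sets of Selp, for P-selectin, disagreed, at 0.64 (SE 0.32) and -0.05 (SE 0.16). So did those of Csf2, at 0.07 (SE 0.10) and -0.26 (SE 0.16). Among the 6 lower genes, Cxcl2 was at -0.16 (SE 0.17), Ltb4r at -0.09 (SE 0.18) and Csf3 at -0.08 (SE 0.12).

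The list of other mast cell genes held 26 genes, 20 with a probe set. Of these 12 were higher and 8 lower, with a median of 0.02. The split was 9 and 11 without overfed pool 1 (median -0.0014) or with neither lean pool 3 nor overfed pool 1 (-0.01), and 10 and 10 without lean pool 1 (-0.0079) or lean pool 2 (-0.0047), so the list had no settled direction. In limma 0 of 26 probe sets were higher and 2 lower at an unadjusted p under 0.05. The 2 were Hpgds and Hdc, both of enzymes that make mast cell mediators. Hpgds, for hematopoietic prostaglandin D synthase, had 0.45, 0.07 and 0.41 for the lean pools, against -0.20, -0.07 and -0.45 for the overfed pools, a difference of -0.55 (SE 0.14, limma adjusted p = 0.623). Hdc, for histidine decarboxylase, which makes histamine, had 0.13, 0.17 and 0.34 for the lean pools, against -0.77, -0.13 and -0.20 for the overfed pools, a difference of -0.58 (SE 0.17, limma adjusted p = 0.645). Neither gene overlapped between the groups, and both lay on the other side of 0 from Cpa3 and Tpsab1.

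Named after their values were seen, other genes of the mast cell lineage had small or split differences. The probe sets of Ms4a2, for the beta chain of the IgE receptor, were at 0.18 and -0.02, and Fcer1g, for its gamma chain, was at 0.04. The mast cell protease genes Mcpt1, Mcpt4, Mcpt9 and Mcpt10 lay between -0.09 and 0.08. The transcription factor gene Gata2 was at 0.0012 (SE 0.51) in 1 probe set, and at 0.19 (SE 0.096) in its other. The former ran from -0.65 in lean pool 2 to 1.11 in overfed pool 1. Il1rl1 was at 0.54 (SE 0.27) in 1 probe set and at -0.10 (SE 0.11) in its other. Srgn was at 0.20 and Enpp3 at -0.19. Of the 26 probe sets, 2 were higher without overlap, those of Il1rl1 at 0.54 and Gata2 at 0.19, against 7.35% of all. Lower without overlap were 2, Hpgds and Hdc, against 5.33%.

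Genes of KIT signalling were followed beside Kit. All 15 had a probe set, 9 were higher and 6 lower (8 and 7 with each array centred on its median), and the median was 0.03. The median was 0.01 without lean pool 1 or overfed pool 1 and 0.0053 with neither lean pool 3 nor overfed pool 1. Of their 27 probe sets, 1 had an unadjusted p under 0.05 in limma. It was that of the phosphatase gene Ptpn11, at 0.32 (SE 0.11, unadjusted p = 0.026), and its other probe set was at 0.11. Without overfed pool 1, 0 probe sets of the list were higher and 1 was lower by this p. Named after their values were seen, the 4 probe sets of Kitlg, for stem cell factor, the ligand of KIT that granulosa cells make, were at 0.18, 0.0065, 0.12 and 0.10.

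**Figure D4:**
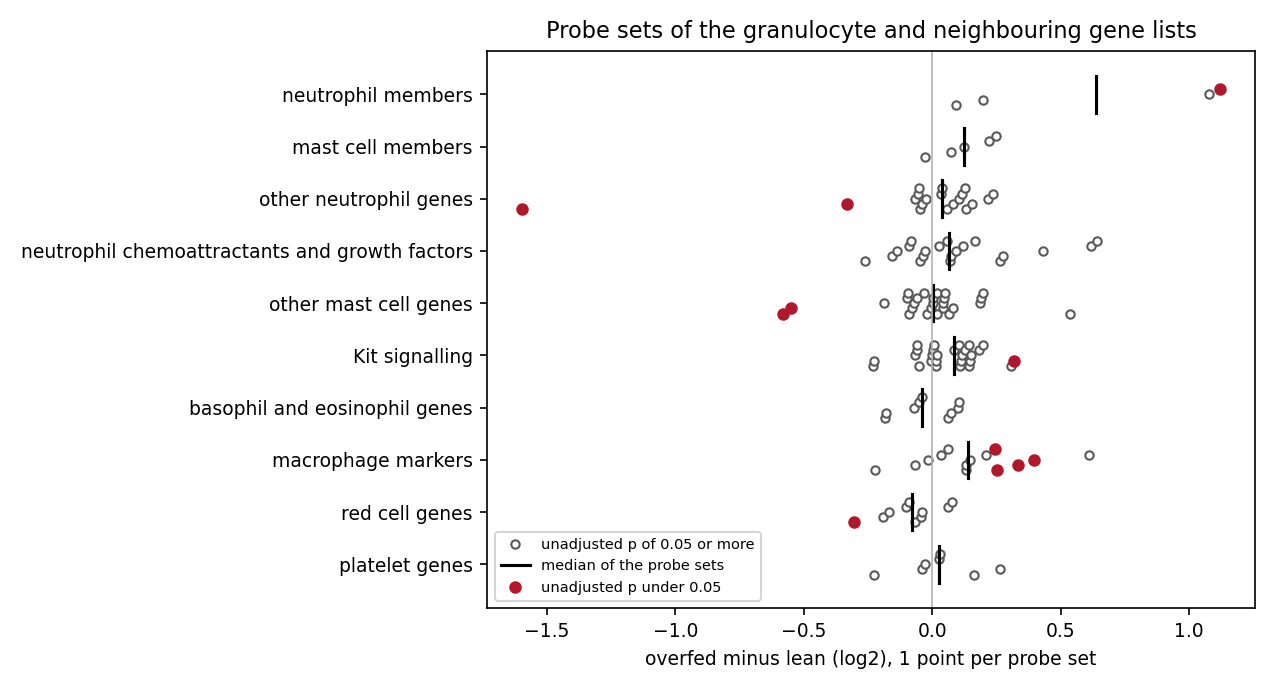
Overfed minus lean difference in log2 (horizontal axis) of every probe set of the members and of 8 further gene lists (rows); filled points have an unadjusted limma p under 0.05 and bars are medians of the probe sets. S100a8 and S100a9 lie furthest to the right, at 1.08 and 1.12, and Lcn2 furthest to the left, at -1.60.

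Markers of other cells were read beside the members. Of 14 macrophage markers, 12 had a probe set, 10 were higher, and 4 of 14 probe sets were higher at an unadjusted p under 0.05 in limma, against 3.31% of all probe sets. This count was 1 without lean pool 2, without overfed pool 3 or with neither lean pool 3 nor overfed pool 1, 2 without lean pool 3 or with array weights, and 5 without overfed pool 2, while the median of 0.18 stayed between 0.14 and 0.26. Macrophages can make calprotectin too. Their list mean was -0.11, -0.14 and -0.05 for the lean pools, against 0.06, 0.04 and 0.17 for the overfed pools, so overfed pool 2, the highest for the S100 genes, was the lowest overfed pool here. The scavenger receptor gene Cd163, named after its values were seen, was lowest in lean pool 2, at -0.97, as the S100 genes were. It was at 0.34 in overfed pool 2 but highest in overfed pool 3, at 0.45. Lean pool 2 was the lowest in 5 of the 14 macrophage probe sets, against 13.8% of all probe sets. In 0 of the 14 was overfed pool 2 also the highest. Red cell genes, read for blood in the tissue, were higher in 2 and lower in 6 of 8 genes, with list means of 0.24, -0.03 and -0.04 for the lean pools, against 0.01, -0.09 and 0.03 for the overfed pools. Without lean pool 1 they were higher in 4 and lower in 4. The beta-globin gene Hbb, named after its values were seen, was at -0.10 in lean pool 2 and at its lowest, -0.29, in overfed pool 2. Platelet genes had list means between -0.02 and 0.05 in every pool. The part of these cells in the S100 differences was not tested.

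Eosinophil and basophil genes gave 4 higher and 5 lower of 9, with a median of -0.04 and 0 of 9 probe sets at an unadjusted p under 0.05 in limma. Their median was 0.0016 without overfed pool 3. Oocyte genes, read beside Kit, gave 2 higher and 4 lower of 6, with list means of -0.22, 0.10 and 0.10 for the lean pools, against 0.03, -0.17 and 0.17 for the overfed pools. Their median of -0.07 turned to 0.06 without lean pool 2 and to 0.03 without lean pool 3, each with 4 higher and 2 lower, and to 0.08 without overfed pool 2, with 3 and 3. Theca and interstitial genes gave 4 higher and 5 lower of 9, with list means of -0.08, 0.07 and -0.13 for the lean pools, against 0.03, 0.01 and 0.05 for the overfed pools. Their median of -0.02 turned to 0.02 without lean pool 1, to 0.06 without lean pool 2 and to 0.01 without overfed pool 1. Ovary markers gave 4 higher and 4 lower of 8, with list means of -0.20, 0.04 and -0.25 for the lean pools, against -0.26, 0.03 and 0.20 for the overfed pools. Their median of 0.03 turned to -0.05 without lean pool 3 and to -0.08 without overfed pool 3, and it was 0.22 without overfed pool 1. Oviduct and ciliated epithelium markers were lower in 10 of 10 genes, with 8 of 12 probe sets lower at an unadjusted p under 0.05 in limma, against 3.36% of all probe sets. This count was 4 without lean pool 3 or overfed pool 3, 5 without lean pool 1, without overfed pool 2 or with neither lean pool 3 nor overfed pool 1, and 10 when lean pool 2 was left out. All 10 genes stayed lower in each of these settings. Their list means were 0.54, -0.03 and 0.77 for the lean pools, against -0.48, -0.15 and -0.69 for the overfed pools. Lcn2, Padi4 and Hpgds also had their lowest lean value in lean pool 2, whereas Hdc had its lowest in lean pool 1, at 0.13. S100a8 and S100a9, which were higher in overfed ovaries, were lowest in lean pool 2 as well. Among the overfed pools, the oviduct list mean and Hpgds (-0.45) were lowest in pool 3. Lcn2 (-0.94), Padi4 (-0.21) and Hdc (-0.77) were lowest in overfed pool 1. The part of epithelium in these differences was not tested.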

How the data were processed

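Expression was measured in 6 ovary RNA pools, 3 lean and 3 overfed, on Affymetrix arrays. Per the labels' protocols, TRI reagent and RNeasy columns were used for the RNA, and labelling with biotin followed the array maker's kit. GCOS is the tool in the submitters' processing notes. The probe set summary, normalization, filters and log base were not given in the sources used here. Deposited values, read as log2, were centred: the median over the arrays was 0 within 1e-06 in all 31099 probe sets, which leaves no levels. If they are natural logarithms, folds printed here are too small. The table held 0 columns of other series.

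After 57 control probe sets were left out, 31042 were tested with limma 3.58.1 in R 4.3.3 (lmFit and eBayes, 2 groups, two-sided, Benjamini-Hochberg over all, threshold 0.05), and the script was tested on simulated data. Values of a gene in list counts are means of its probe sets. Of all probe sets, 20826 had 1 gene name, 436 several and 9780 were unnamed here. Symbols followed Entrez identifiers in the RefSeq table, which held 20758. Of 178 listed genes beside the members, 128 had a probe set. Members and lists were chosen with earlier results of these data known. Named were all members, up to 4 genes per list at an unadjusted p under 0.05 and the 5 genes nearest to S100a8 and to S100a9; in the macrophage, theca, ovary, red cell and oviduct lists only counts, medians and list means are given, beside Hbb and Cd163. Other genes were named after their values were seen. Alternatives were leaving out pools, the pool number as a block, weights per array, a robust prior with a trend, quantile normalization and centring arrays on their median. No filter on dim probe sets or trend over the mean was used in the main fit, since the values hold no means. Figures were drawn with matplotlib 3.10.9.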

Additional observations from a re-analysis of the deposited data

How the results depend on the processing

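Over the 12 alternatives, 0 members passed the adjusted threshold, and S100a8, S100a9, Cxcr2, Csf3r, Cpa3, Tpsab1 and Fcer1a kept their direction in each. S100a8 ran from 0.62 to 1.46 and S100a9 from 0.77 to 1.47. With 1 pool left out, Cma1 ran from -0.19 to 0.21 and Kit from -0.057 to 0.0092. The count of members at an unadjusted p under 0.05, 1 in the main setting, was 0 with quantile normalization, 2 with a trend and robust prior, 3 with array weights and 0 to 2 with any 1 pool left out. Over all probe sets, the trend with a robust prior called 1 at an adjusted p under 0.05 and the other settings 0. Same-numbered pools had correlations of their deviations of 0.10, 0.17 and -0.28. With 3 pools per group, these values cannot settle whether pools of the same number were handled together. With the pool number as a replicate block the count of members was 0, with S100a9 at an unadjusted p of 0.0544, and 1757 probe sets against 2070 had an unadjusted p under 0.05. The median differences moved by less than the SD of the pool medians, 0.37 for neutrophil and 0.12 for mast cell genes. This is no test of robustness, since the block and the robust prior leave the differences unchanged by design. The mast cell SD was also about as large as the mast cell median difference itself, 0.12. The number of pools and the missing levels limit the precision.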
